A study of Mus musculus with 4 samples.

Results

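*Ppef1* and *Ppef2*, the mammalian relatives of the fly gene *rdgC*, were examined in RNA-seq libraries of *rd7* and wild-type mouse retinas. They are 2 of the 22095 loci listed in the deposited expression table. The pair was chosen by the size of the rise of *Ppef1* in this same comparison, and *Ppef2* was added as its paralog known from photoreceptors. The levels of both genes in the 2 genotypes are therefore given here as a description, without a test.

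In *rd7* mice the mutated gene is *Nr2e3*, a nuclear receptor of rod development, and the labels give C57BL/6J as the strain of the mutant and of the wild-type animals. There were 2 libraries per genotype, and each was made from 8 whole retinas of 2 females and 2 males at 3 weeks of age, with no treatment. A difference between libraries of one genotype is thus a difference between pools of animals. Whole retina was used, so fewer cells of a type and less RNA per cell cannot be told apart. The expression values are FPKM, which are sequenced fragments scaled to the length of the transcript and to the number of mapped fragments. The FPKM of *Nr2e3* itself was 2493 and 1589 in the mutant pools against 385 and 394 in the wild-type pools.

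The members of this family join a serine/threonine phosphatase domain of the PPP type to calcium-binding EF-hands near the C-terminus and a calmodulin-binding IQ motif near the N-terminus. In the fly eye, RdgC removes phosphate from the light-activated visual pigment, and its loss leads to retinal degeneration. In mammals *Ppef2* is known from rod photoreceptors and the pineal gland, and *Ppef1* from primary sensory neurons, for example those of the dorsal root ganglia and the inner ear. Mice without both genes have been described as having no photoreceptor degeneration.

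The coding sequence of the phosphatase signature shows what the 2 genes share. It was read from the GENCODE vM1 transcripts of the mouse build NCBIM37, which is mm9. The capitals mark the codons of the part of the signature that is fixed, which contributes residues of the active site, and each sequence is given 5′ to 3′.
*Ppef1*, residues 233 to 238: aatagaGGGAACCATGAA
*Ppef2*, residues 237 to 242: aacagaGGAAACCATGAG

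The calcium-binding side of the proteins is shown by the loop nearest to the C-terminus, where capitals mark the codons at the positions that coordinate calcium in a canonical EF-hand. The standard loop pattern was found 3 times in each protein.
*Ppef1*, residues 620 to 632: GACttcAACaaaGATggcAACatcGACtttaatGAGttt
*Ppef2*, residues 709 to 721: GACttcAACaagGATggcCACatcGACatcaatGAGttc

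A relaxed form of the IQ motif was also found near the N-terminus, from residue 23 in the 650 residues encoded by *Ppef1* and from residue 26 in the 757 residues encoded by *Ppef2*. The pattern occurred once more in *Ppef2*, from residue 485. Aligned over 647 positions, the 2 proteins were identical at 314, or 48.5%.

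Paralogs can exchange reads when their transcripts hold the same stretch, which would blur the FPKM of both. Of the 2434 windows of 50 bases, the length of the reads, in the *Ppef1* transcript, 0 occurred in *Ppef2*. None of these windows, and none of the 2225 windows of the *Ppef2* transcript, occurred in the protein-coding transcripts of any other gene. The longest run shared by the 2 transcripts is 17 bases, printed here because it sets the limit on what they have in common, and it lies within the coding sequence.
Shared run: ttcaatggtgactttgt

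*Ppef1* was barely detected in wild-type retinas and was well detected in *rd7* retinas. The gene lies on the minus strand of chromosome X of mm9, from 157061027 to 157157904. The wild-type libraries held it at an FPKM of 0.383 and 0.331 and the *rd7* libraries at 12.9 and 18.2. Both *rd7* values were far above both wild-type values, and *rd7* replicate 2 was the higher of the mutant pools. Means of 15.6 ± 3.76 (SD, n = 2) for *rd7* and 0.357 ± 0.0364 (SD, n = 2) for wild-type gave a ratio of 43.6. Between single libraries the ratio ran from 33.7 to 55.0. On the log2(FPKM + 0.1) scale the difference was 5.08 (standard error 0.18), which understates the ratio of so low a gene. The wild-type level exceeded that of 35.6% of the loci with a successful estimate, and the *rd7* level exceeded that of 78.0%. By an estimate of what 1 read is worth, the wild-type values rested on about 34 and 29 reads and the *rd7* values on about 1137 and 1580.

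*Ppef2* was abundant in both genotypes. The gene lies on the minus strand of chromosome 5, from 92656000 to 92682185, and the locus is that of a GENCODE vM1 transcript that holds the coding sequence only. The FPKM was 71.7 and 72.8 in the wild-type libraries and 90.9 and 71.3 in the *rd7* libraries. The genotypes overlapped, since *rd7* replicate 2 lay below both wild-type libraries while *rd7* replicate 1 stood above the other 3. The *rd7* mean was 81.1 ± 13.9 (SD, n = 2) and the wild-type mean 72.2 ± 0.748 (SD, n = 2), so that the difference was smaller than the spread between the *rd7* pools. The log2 difference was 0.16 (standard error 0.11), close to the median of 0.15 over all 12655 genes compared. Without *rd7* replicate 1 it was -0.02, and without *rd7* replicate 2 it was 0.33. The level of *Ppef2* lay above that of 96.5% of the loci in wild-type and of 96.6% in *rd7* retinas, and about 5659 to 7326 reads lay behind each value.

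**Figure D1:**
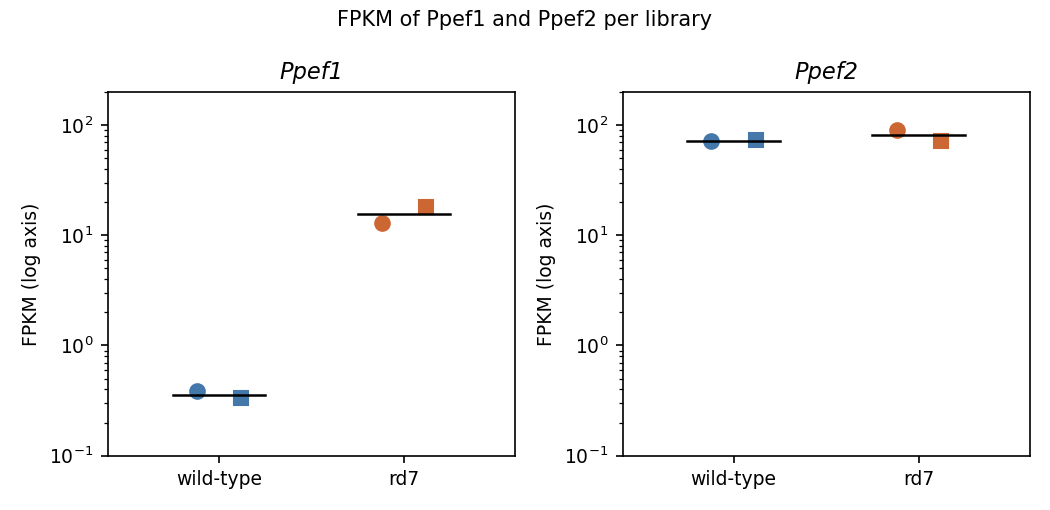
FPKM of *Ppef1* (left) and *Ppef2* (right) in each library, on a log axis, with circles for replicate 1, squares for replicate 2 and a bar for the mean of the 2 libraries. *Ppef1* sits at 0.383 and 0.331 in wild-type and at 12.9 and 18.2 in *rd7* retinas, while the *Ppef2* values of the genotypes overlap.

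FPKM divides by transcript length, so the levels of the paralogs can be set side by side within a library. In order of level stood *Ppef2* in *rd7*, *Ppef2* in wild-type, *Ppef1* in *rd7* and *Ppef1* in wild-type retinas, and of these neighbours only the first pair overlapped. The FPKM of *Ppef2* was 187 and 220 times that of *Ppef1* in the wild-type libraries and 7.04 and 3.91 times in the *rd7* libraries. *Ppef1* thus made up 0.531% and 0.453% of the summed FPKM of the pair in wild-type retinas and 12.4% and 20.4% in *rd7* retinas. The *rd7* pool with more *Ppef1* was the one with less *Ppef2*, and with 2 pools no relation between them can be tested. The authors also deposited an FPKM per genotype pooled by their software, which was 0.417 in wild-type and 16.9 in *rd7* for *Ppef1*. For *Ppef2* the authors' pooled FPKM was 75.8 and 94.6, and each of these lies above both library values of its genotype, so that the 2 kinds of estimate are not on one scale.

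*Ppef1* lies on the X chromosome, so the sex of the pooled animals was read from sex-linked genes. *Xist*, the RNA that silences 1 X chromosome in females, stood at an FPKM of 88.5 and 83.6 in *rd7* and of 53.0 and 53.3 in wild-type pools. The genes *Ddx3y*, *Eif2s3y*, *Kdm5d* and *Uty* of the Y chromosome were detected in all 4 libraries. *Uty* had an FPKM of 3.37 and 2.83 in *rd7* and of 2.07 and 2.09 in wild-type retinas, while the *Eif2s3y* values of the genotypes overlapped. Over the 422 genes of the X chromosome that were compared, the median log2 difference was 0.29, and the largest difference after that of *Ppef1* was 3.51, for *Tmem164*. The part of the sex of the animals in the level of *Ppef1* was not tested.

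Markers of other cells were read beside *Ppef1*. For 8 markers of primary sensory neurons, the cells in which *Ppef1* is best known, the summed FPKM was 11.04 and 11.5 in the *rd7* and 9.55 and 9.51 in the wild-type libraries. Of the sodium channels of pain-sensing neurons, *Scn10a* stood at 0.00719 and 0.00143 in *rd7* against 0.000212 and 0.000843 in wild-type retinas. *Scn11a* stood at 0.265 and 0.101 against 0.0646 and 0.0955, so that both were near 0. By the estimate of what 1 read is worth, the wild-type values of *Scn10a* stood for less than 1 read, so no direction is read from them. *Scn11a* was higher in both *rd7* pools, by little in *rd7* replicate 2. Over all genes tested by limma, 37.6% were called higher and 8.80% lower in *rd7* retinas. Of the 4 sensory neuron markers that could be tested, 1 was higher, *Calca*, which encodes the neuropeptide CGRP, at 1.64 and 3.00 against 0.847 and 1.13. The summed FPKM of 10 cone genes was 4517 and 4809 in *rd7* against 1453 and 1497 in wild-type retinas, and 8 of these genes were called higher and 0 lower by limma, beside 37.6% and 8.80% of all genes. That of the rod genes with a successful estimate was 9166 and 9874 against 12640 and 12880, with 0 of 7 called higher and 4 lower. Cone genes that were lower and rod genes that were higher numbered 0 at an unadjusted p under 0.05 as well. The summed FPKM of Müller cell markers was 2087 to 2151 in *rd7* and 1906 to 1973 in wild-type retinas, that of 6 bipolar cell markers was 250.2 to 300.3 against 191.7 to 197.7, and that of 7 pigment epithelium markers was 53.7 to 58.1 against 20.6 to 33.3. Most of the last sum was *Ttr*, at 39.3 and 34.9 in *rd7* against 21.1 and 13.1 in wild-type retinas. *Rpe65*, *Lrat* and *Rgr* were also higher in both *rd7* pools, *Tyr* and *Mlana* overlapped, and *Best1*, near 0, was lower in both. Blood markers had a summed FPKM of 76.8 and 160.6 in *rd7* against 235.3 and 317.5 in wild-type retinas. Of the 4 blood loci tested, limma called 3 lower and 0 higher, beside 8.80% and 37.6% of all genes. Lens markers overlapped, at 13.6 and 31.2 in *rd7* against 24.6 and 53.0 in wild-type retinas. Both sums were lowest in *rd7* replicate 1. The part of these cell types in the level of *Ppef1* was not tested.

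The pattern most like that of *Ppef1* over the 4 libraries was that of *Nat1*, an N-acetyltransferase, among genes whose mean FPKM reached 1. Likeness was measured as the distance between log2(FPKM + 0.1) values after the wild-type mean of each gene was subtracted. *Nat1* lay at a distance of 0.64, with an FPKM of 12.9 and 19.1 in the *rd7* and of 0.505 and 0.552 in the wild-type libraries. It was followed by *1100001G20Rik* (0.86), *Fabp7* (1.12), *Cd8a* (1.15) and *Ccdc60* (1.57). In *Nat1*, as in *Ppef1*, *rd7* replicate 2 was the higher pool, and in the other 4 genes it was *rd7* replicate 1. Of 17 genes that differed by at least 3 on the log2 scale and were called higher, 6 were higher in *rd7* replicate 2 and 11 in *rd7* replicate 1. *Ppef1* falls in this set through the rise by which it was chosen, so its place there is no test of it. *Car14*, *Snap23*, *Mycn*, *Prrt2* and *Zic1* were nearest to *Ppef2*, at distances of 0.02 to 0.04, and 8434 of the 12655 genes tested lay within 0.5 of it.

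The 11 other catalytic subunits of the PPP family are the general serine/threonine phosphatases of the cell. Of these, 7 were higher in *rd7* retinas, 0 were lower and 4 were not called, by limma with Benjamini-Hochberg adjustment and a cut-off of 5% on the false discovery rate (FDR). The lower subunits also numbered 0 at an unadjusted p under 0.05. The shares over all genes were 37.6% and 8.80%. The median log2 difference of the 11 was 0.28, against 0.15 over all genes. *Ppp1cb*, a catalytic subunit of protein phosphatase 1, had an FPKM of 57.2 and 58.5 in *rd7* and of 40.6 and 41.3 in wild-type libraries. The log2 difference was 0.50 (standard error 0.05, adjusted p = 0.0014 from limma). *Ppp3cb*, a subunit of the calcium-dependent phosphatase calcineurin, rose by 0.44 (standard error 0.06, adjusted p = 0.0031 from limma). *Ppp2ca*, of protein phosphatase 2A, rose by 0.37 (standard error 0.05, adjusted p = 0.00325 from limma). The other higher genes were *Ppp6c* (0.34), *Ppp3ca* (0.29), *Ppp1cc* (0.28) and *Ppp2cb* (0.22). *Ppp1ca* had a log2 difference of 0.15, *Ppp4c* of 0.05, *Ppp5c* of -0.01 and *Ppp3cc* of -0.09, and none of these passed the test.

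Among the 13 subunits *Ppef1* had the lowest FPKM in both genotypes. In wild-type retinas the next lowest was *Ppp6c*, at 16.1 and 16.9, and in *rd7* retinas *Ppp6c* stood at 21.4 and 20.5, above both values of *Ppef1*. *Ppef2* was the fourth highest in wild-type retinas, after *Ppp1cc*, *Ppp2ca* and *Ppp1ca*. With median-ratio scaling of the libraries, which moved the median of all genes from 0.15 to -0.0049, 4 subunits were higher and *Ppp5c* was lower, and once exonic GC content and length were regressed out 0 were higher by limma, 1 at an unadjusted p under 0.05, and *Ppp3cc* was lower. The count of higher subunits was 2 without wild-type replicate 1 and 4 without wild-type replicate 2, and the count over all genes fell as well, to 1293 and 2124 from 4755.

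**Figure D2:**
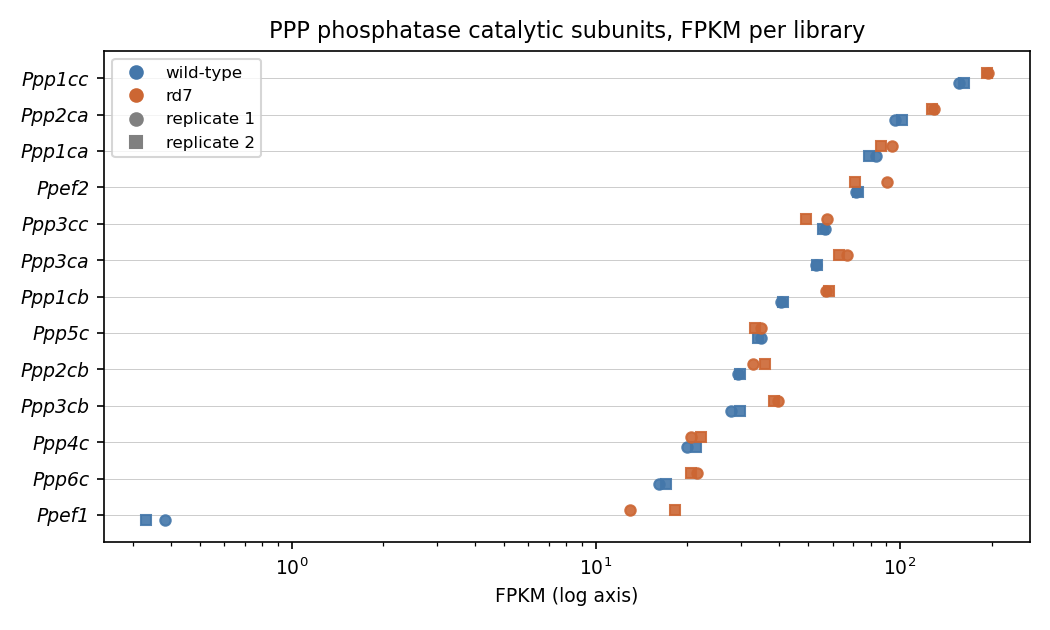
FPKM of the 13 PPP catalytic subunits in each library, on a log axis, ordered by the wild-type mean, with circles for replicate 1 and squares for replicate 2. *Ppef1* alone lies below 1 in wild-type retinas, and all other subunits lie at 16.1 or above in all 4 libraries.

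Visual pigments, their kinase and the proteins that act on phosphorylated pigment form the pathway in which the fly relative works. Of the 6 genes tested on this list, 1 was higher and 1 was lower, against 37.6% and 8.80% over all genes. *Opn1sw*, the short-wavelength cone opsin, had an FPKM of 504 and 465 in *rd7* and of 185 and 215 in wild-type libraries. The log2 difference was 1.28 (standard error 0.08, adjusted p = 0.000648 from limma). *Grk1*, the kinase of the visual pigment, fell by 0.30 (standard error 0.07, adjusted p = 0.0148 from limma), from an FPKM of 282 and 291 to 221 and 246. The call was made in 9 of the 10 fits with the 4 libraries, with a log2 difference of -0.54 to -0.30. It was lost without a filter on low FPKM, at -0.30 (adjusted p = 0.05003 from limma), without wild-type replicate 1 and without wild-type replicate 2, where limma called 0 genes of the list lower each time and 1 had an unadjusted p under 0.05. *Rcvrn*, the calcium sensor that inhibits this kinase, had a log2 difference of 0.11, the arrestins *Arr3* and *Sag* of 0.08 and -0.02, and the middle-wavelength cone opsin *Opn1mw* of -0.16, and none of the 4 passed the test. With median-ratio scaling *Opn1mw* was called lower as well, at -0.32. After exonic GC content and length were regressed out it was not called, and *Sag* was called lower, at -0.30. Over the 10 fits with the 4 libraries *Sag* ran from -0.30 to 0.24.

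Calcium and calmodulin act on the PPEF proteins through the EF-hands and the IQ motif, so other EF-hand calcium sensors of the retina were counted. Of 25 genes, 11 were higher and 4 lower, beside 37.6% and 8.80% of all genes, and 10 were not called. The median log2 difference was 0.11, below that of all genes. Those that rose most were *Calml4* (1.73), a calmodulin-like gene with a wild-type FPKM of only 0.542 and 0.387, *Guca1a* (0.74), which activates guanylate cyclase in photoreceptors, and *Ncald* (0.55), a neuronal calcium sensor. Their adjusted p from limma was 0.00741, 0.00533 and 0.00149. *Guca1b*, a second cyclase activator, fell most, with an FPKM of 296 and 424 in the *rd7* and of 780 and 758 in the wild-type libraries. The log2 difference was -1.12 (standard error 0.16, adjusted p = 0.00398 from limma). *Cabp4*, which regulates the calcium channel of the photoreceptor synapse, fell by 0.67, and *Cabp1* fell by 0.62. The calmodulin genes *Calm2* and *Calm3* were called higher, at 0.22 and 0.19. *Calm2* was called in 8 of the 10 fits with the 4 libraries and *Calm3* in 5, and *Calm2* ran from -0.02 to 0.22. The count of higher sensors was 7 with median-ratio scaling, 6 without wild-type replicate 1 and 7 without wild-type replicate 2.

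PPEF2 is known to act against ASK1, the stress kinase encoded by *Map3k5*, and 12 of 14 genes of that kinase's cascade could be tested. Of these, 7 were higher and 1 was lower, where all genes gave 37.6% and 8.80%, and 4 were not called. The median log2 difference was 0.23, against 0.15 over all genes. *Map3k5* had an FPKM of 3.55 and 4.02 in *rd7* and of 3.06 and 2.86 in wild-type libraries. The log2 difference was 0.34 (standard error 0.10, adjusted p = 0.0358 from limma). *Mapk8*, which encodes the kinase JNK1, rose by 0.54 and *Map2k6*, a kinase upstream of p38, by 0.51, while *Map2k3*, the other kinase of this step, fell by 0.31. The call of *Map3k5* was made in 4 of the 9 fits in which it was tested with all 4 libraries, with an adjusted p from limma of 0.0335 to 0.377. The count of higher genes of the cascade was 3 with median-ratio scaling and 0 by limma after the GC and length regression, where 2 had an unadjusted p under 0.05. It was 1 without wild-type replicate 1 and 3 without wild-type replicate 2.

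**Figure D3:**
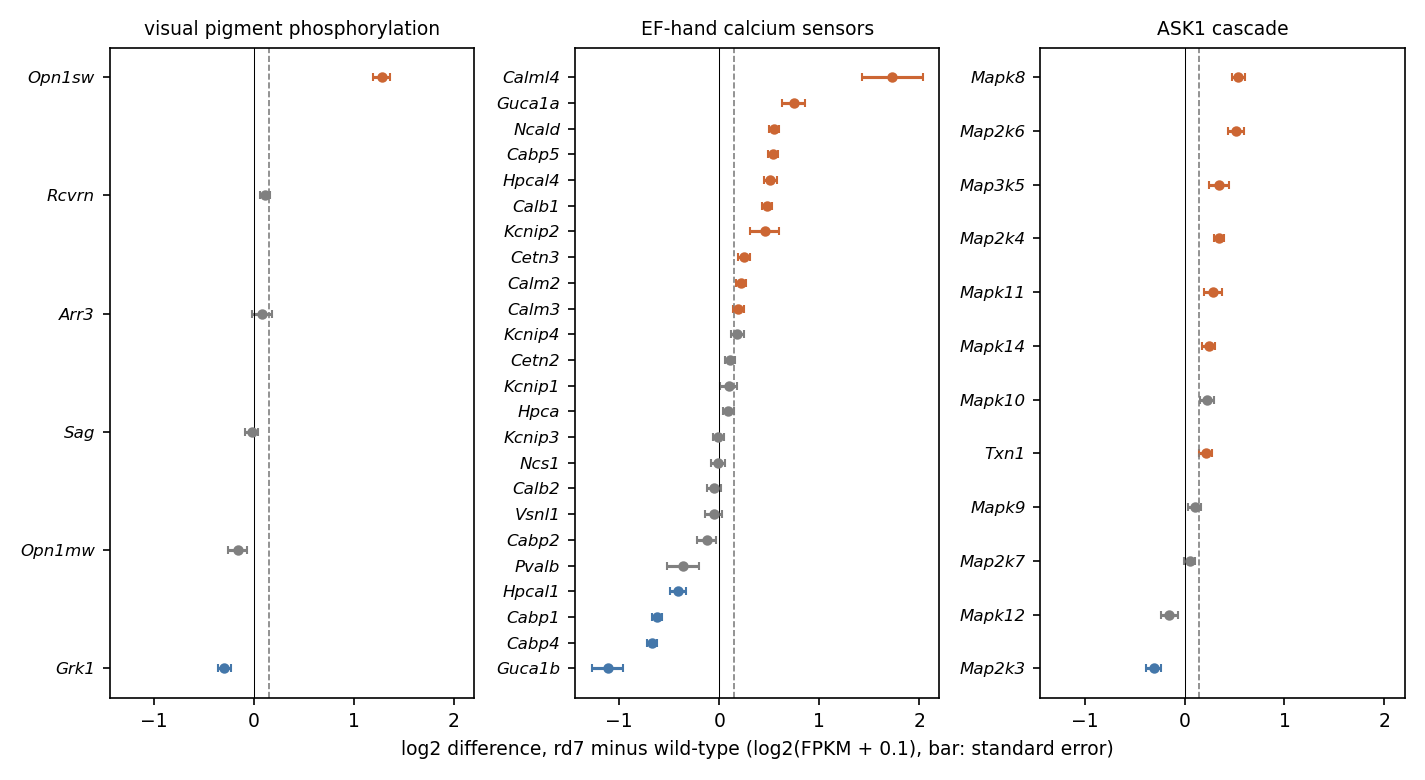
Log2 difference (*rd7* minus wild-type, on the log2(FPKM + 0.1) scale) of tested genes of the 3 lists, with the standard error. A higher calcium sensor that is part of the count is not drawn. Orange marks genes called higher, blue those called lower and grey those not called at an FDR of 5%, the solid line is at 0 and the dashed line at 0.15, the median of all genes. The calcium sensors spread furthest, from -1.12 for *Guca1b* to 1.73 for *Calml4*.

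Neighbours on the chromosome were examined to see whether the level of *Ppef1* was shared along its locus. Of the loci within 250 kb, *Phka2*, which encodes a regulatory subunit of phosphorylase kinase and lies 24.2 kb beyond the 3′ end of *Ppef1*, had an FPKM of 6.69 and 5.90 in *rd7* and of 6.12 and 6.17 in wild-type libraries (log2 difference 0.03, adjusted p = 0.773 from limma). *Gpr64* and *Gja6* had an FPKM under 0.4 in all 4 libraries. These loci are not all of the interval, and no count of calls is given for it. Around *Ppef2*, 13 loci were listed and 7 tested, of which 5 were higher by limma, beside 37.6% of all genes, and 0 lower, also at an unadjusted p under 0.05. Its nearest neighbour *Naaa*, a lysosomal amidase gene 4.50 kb from the deposited locus, had an FPKM of 14.5 and 13.4 in *rd7* and of 12.8 and 12.9 in wild-type libraries (log2 difference 0.11, adjusted p = 0.182 from limma). That locus holds the coding sequence only, and the RefSeq start of *Ppef2* lies nearer to *Naaa*. The higher genes were *Scarb2* (0.66), *G3bp2* (0.37), *Uso1* (0.36), *Sdad1* (0.34) and *Nup54* (0.20), and *Cdkl2* had a log2 difference of 0.41 that did not pass the test. Of the 5 higher genes, *Scarb2* was called in all 10 fits with the 4 libraries, *G3bp2* and *Uso1* in 9, *Sdad1* in 7 and *Nup54* in 4. After the GC and length regression *Scarb2* alone was called, at 0.55, and the other 4 ran from -0.07 to 0.08. The calls of *Sdad1* and *Nup54* were also lost with median-ratio scaling, at 0.18 and 0.05. The other loci, *Gm1045*, *U90926*, *Cxcl9*, *Art3*, *Cxcl10* and *Cxcl11*, had a mean FPKM below 1.

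**Figure D4:**
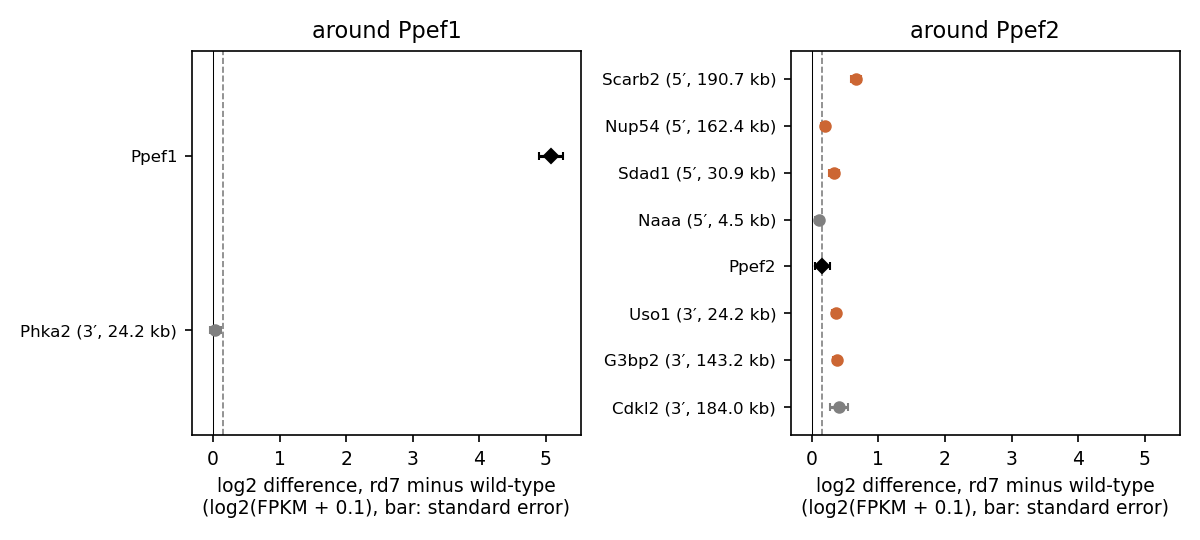
Log2 difference (*rd7* minus wild-type, on the log2(FPKM + 0.1) scale) with its standard error for *Ppef1* and *Ppef2* (black diamonds) and tested genes within 250 kb, in order along the chromosome, with the side and the gap to the deposited locus of the member. Orange marks genes called higher at an FDR of 5% and grey those not called, the solid line is at 0 and the dashed line at the median of all genes. *Ppef1* stands at 5.08 and *Phka2* at 0.03.

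The 250 bases before the start of each gene are printed because the paralogs differ so widely in their wild-type level. They were taken from RefSeq (build GRCm38.p6) and each matched mm9 at 1 place, on the minus strand. Both strands were searched for TAATCC, the core bound by the homeobox factor CRX, for AAGTCA, a half-site of the kind bound by NR2E3, and for TGCTGA, a half-site bound by NRL. Capitals mark the matches.
*Ppef1*, chrX:157157905-157158154: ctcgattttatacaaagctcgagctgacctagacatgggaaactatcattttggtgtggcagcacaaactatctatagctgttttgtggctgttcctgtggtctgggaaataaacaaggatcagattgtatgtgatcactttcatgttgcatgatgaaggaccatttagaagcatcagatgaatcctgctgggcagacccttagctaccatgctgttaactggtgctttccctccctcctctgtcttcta
*Ppef2*, chr5:92685305-92685554: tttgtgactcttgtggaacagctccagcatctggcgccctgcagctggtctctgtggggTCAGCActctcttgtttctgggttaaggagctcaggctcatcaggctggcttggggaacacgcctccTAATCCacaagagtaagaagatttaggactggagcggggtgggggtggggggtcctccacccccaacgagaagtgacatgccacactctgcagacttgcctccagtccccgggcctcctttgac

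The 3 motifs were not found in the *Ppef1* window, whose end adjoins the deposited locus, which says only that these letters are not in this window. In the *Ppef2* window TAATCC was found from 124 to 119 bases before the start and TGCTGA, on the opposite strand, from 191 to 186 bases before it. Of 32851 windows of this length before RefSeq starts, 6.25% held TAATCC, 13.1% held AAGTCA and 16.1% held TGCTGA on either strand. The RefSeq start of *Ppef2* lies upstream of the deposited locus. A match of letters is not a site of binding, and none of these windows was measured here.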

How the data were processed

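Polyadenylated RNA of 2 *rd7* and 2 wild-type pools was sequenced as single reads of 50 bases. By the methods and the submitters' processing notes, the authors aligned to mm9 with TopHat 1.4.1 and ran Cufflinks 1.3.0, and the FPKM they deposited carry a status per gene and library. The gene annotation is not given in the sources used here. Their table of the Cuffdiff comparison also holds fold changes, p-values and q-values, which were not used, and a pooled FPKM per genotype, which was.

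Of 22095 loci, 262 with an unsuccessful status were left out, and the 12655 whose mean FPKM reached 1 were fitted in limma 3.58.1 (R 4.3.3) on log2(FPKM + 0.1), with a variance trend, two-sided, with Benjamini-Hochberg adjustment over all of them at an FDR of 5%. The fit was tested on simulated data. Calls were counted per list. With 2 pools per genotype, p-values rest on the spread between pools. The variance of each gene was moderated toward a trend over genes of similar mean level, so its own pools set only a part of it. An exact permutation test of 1 gene cannot pass the threshold with so few libraries and was not used.

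No read counts were given. The worth of 1 read was estimated as the median FPKM times kb of exon between 0.02 and 0.036, in genes with 1 transcript of over 800 bp, which gave 3.49e+07 to 3.55e+07 reads per library. The window limits how far these could differ, and estimates per gene are rough.

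The members, the lists and the tests were chosen with earlier results of these data known. The genes named are both members, the PPP and visual pigment lists, the 3 called sensors and cascade genes that moved most in each direction, the neighbours within 250 kb, the 5 nearest patterns, sex-linked genes and leading markers. *Tmem164*, *Scn10a*, *Scn11a*, *Calca*, *Calm2*, *Calm3*, *Map3k5* and the pigment epithelium markers were picked with their values in view. Some genes of these lists and neighbourhoods are not reported here. Sequences were handled in Python 3.11.15 with Biopython 1.88. Proteins were aligned globally with BLOSUM62.

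The alternatives were pseudocounts of 1 and 0.01, a minimum mean FPKM of 5 or no minimum, scaling of the libraries by median ratios or by quantiles, no variance trend, a replicate block, regression on exonic GC content and exonic length (available for 96.2% of the genes tested), and leaving out each library.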

Additional observations from a re-analysis of the deposited data

How the results depend on the processing

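With 2 pools per genotype, a single library decides much of what is called, and the low reads behind *Ppef1* in wild-type retinas limit its ratio. The log2 difference of *Ppef1* was 3.59 with a pseudocount of 1 and 5.39 with 0.01, which follows from its low wild-type level, 4.73 under quantile scaling and 4.74 after GC and length regression, and 4.83 to 5.33 with a library left out. That of *Ppef2* stayed between 0.0024 and 0.16 in the 9 refits with all libraries and ran from -0.02 to 0.33 with a library left out.

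Higher and lower genes numbered 2492 and 2479 under median-ratio scaling, 2350 and 2404 under quantile scaling and 1515 and 1838 after GC and length regression, each of which brings the median of all genes near 0. With a library left out they ranged from 1293 to 5484 and from 224 to 1601. Of the other PPP subunits, 4 were higher and 1 lower under median-ratio scaling and 0 and 1 after GC and length regression, and 2 to 8 and 0 to 1 with a library left out. Of the visual pigment list, 0 were lower without a filter and 2 under median-ratio scaling or GC and length regression, and 1 to 3 were higher and 0 to 2 lower with a library left out. Of the calcium sensors, 7 were higher under median-ratio scaling and 7 after GC and length regression, and 6 to 12 were higher and 3 to 6 lower with a library left out. Of the ASK1 cascade, 3 were higher without a filter, 3 under median-ratio scaling, 3 under quantile scaling, 4 without a variance trend and 0 after GC and length regression. Its lower genes numbered 0 at a mean FPKM of at least 5, where *Map2k3* was not tested, and 2 under each of the 3 scalings and corrections, and 1 to 7 were higher and 0 to 2 lower with a library left out. Other than through the construction named, the cause was not tested.

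Replicate numbers gave no pairing: over genes, the 2 libraries numbered 1 deviated from their group means with r = -0.0265. A replicate block left 4508 genes higher and 1091 lower, with 7 PPP subunits, 10 calcium sensors and 6 genes of the ASK1 cascade higher.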
